A study of Mus musculus with 6 samples.

Results

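Genes of the oligodendrocyte lineage were followed in whole mouse brains that carried 1 disrupted copy of periphilin (Pphln1) and in brains of littermates with both copies. The set was chosen by name: 31 genes, of which 24 belong to myelin and the mature oligodendrocyte and 7 to the oligodendrocyte precursor. A gene was kept where the array annotation gave it a probe set of its own, a group of short probes that reports 1 transcript. That held for 30 genes and 68 probe sets, of 18193 genes and 34945 probe sets for which it held on the whole array. Without its controls the array has 45037 probe sets. For Trf, the transferrin gene, the annotated probe set is shared with another gene, so Trf was not measured here. Both genotypes comprised 3 male mice aged 2 months: periphilin +/- mice and C57BL/6 wild types. Each brain was frozen whole, and its labelled RNA went onto an Affymetrix array of its own. The sources used here give neither the position of the disruption within Pphln1 nor how the allele was made.

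Oligodendrocytes wrap axons of the central nervous system in myelin, a stack of membrane that is rich in galactolipids and held together by proteins such as myelin basic protein. They arise from precursor cells that carry the receptor for platelet-derived growth factor and the proteoglycan NG2, and that persist in the adult brain. Sox10 and Olig2 act through the whole lineage, and Myrf switches on the myelin genes when a precursor matures. Periphilin belongs to the HUSH complex, through which chromatin on retroelements and certain genes is kept silent.

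Values are intensities as deposited, on a linear scale that had been set to a common level on every array before deposit. Array medians lay between 31.04 and 34.4. Differences are given as heterozygous minus wild type on the scale log2(intensity + 16), which understates changes of dim probe sets. Of the 68 probe sets, 56 were bright enough to be tested, and each of the 30 genes kept at least 1. A gene is described by its brightest probe set unless another is named. Over the whole array, 4 of 27022 probe sets, 0.0148%, passed the threshold of 0.05 (limma, adjusted over all probe sets). Pphln1 itself was at 319.8 ± 44.5 (SD, n = 3) in heterozygous brains and, among wild types, at 299.7 ± 12.6 (n = 3) for its brighter probe set. At the dimmer one, 1435766_at, it measured 37.2 ± 6.91 against 52.3 ± 9.50 with no overlap between genotypes, and neither difference passed the test.

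No myelin or precursor gene passed the test, at any of its probe sets. The lowest limma adjusted p among the 56 member probe sets was 0.956. Of the 23 myelin genes, 10 lay above 0 and 13 below, with a median log2 difference of -0.0055, and after median centring of the arrays 7 lay above and 16 below. Of the 7 precursor genes, 3 lay above and 4 below, with a median of -0.04. Over all 13024 genes tested the median was 0.0068, and 52.0% lay above 0. Without adjustment, 2 of the 30 genes had a p below 0.05, Cryab and Ermn, beside 4.38% of all genes. Both lay lower in heterozygous brains, a direction in which 2.26% of all genes had such a p, and none of the 30 lay higher, beside 2.13% of all genes. The count among the 30 genes was 0 without wild type 1 and 0 without wild type 3. It was 2 without heterozygous 1, 2 without heterozygous 2, 2 without wild type 2 and 1 without heterozygous 3. In each of these 4 fits only 1 of Cryab and Ermn kept such a p. Without heterozygous 1, such a p went with a higher value for 1 precursor gene. The genotypes did not overlap for 3 of the 30 genes, beside 10.1% of all genes. Of these, Enpp6 was higher, beside 5.19% of all genes, and Cryab and Matn4 were lower, beside 4.95%. In bulk tissue, fewer cells of a type and less RNA per cell cannot be told apart, and this holds for every value below.

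The size of change that the 6 arrays leave possible can be read from the limma 95% intervals. On the scale with the offset of 16, the interval lay within a 1.5-fold change in either direction for 29 of the 30 genes, with Cryab as the exception, and for 82.9% of all genes. All 30 lay within a 2-fold change there, beside 98.4% of all genes. As folds of intensity, with the offset taken off and the wild-type level held at its mean, 25 of the 30 genes lay within 1.5-fold and all 30 within 2-fold, beside 69.1% and 90.2% of all genes. The limits that passed 1.5-fold were 0.656 of the wild-type level for Cryab, 0.616 for Nkx6-2, 0.626 for Cspg4, 0.642 for Matn4 and, upward, 1.64 for Enpp6. Other than Cryab, these genes had wild-type means from 31.2 to 82.7. All these counts and limits are those of the brightest probe sets. Some dimmer tested probe sets passed 1.5-fold as well, such as 1436263_at of Mobp (0.638) and 1425263_a_at of Mbp (1.65). At 1421694_a_at of Vcan the upper limit was 2.48, beyond 2-fold. The intervals are those of single genes, not adjusted for their number. The spread between brains of 1 genotype, as the median residual SD on the log2 scale, was 0.15 for the myelin genes, 0.12 for the precursor genes and 0.15 for all genes.

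**Figure D1:**
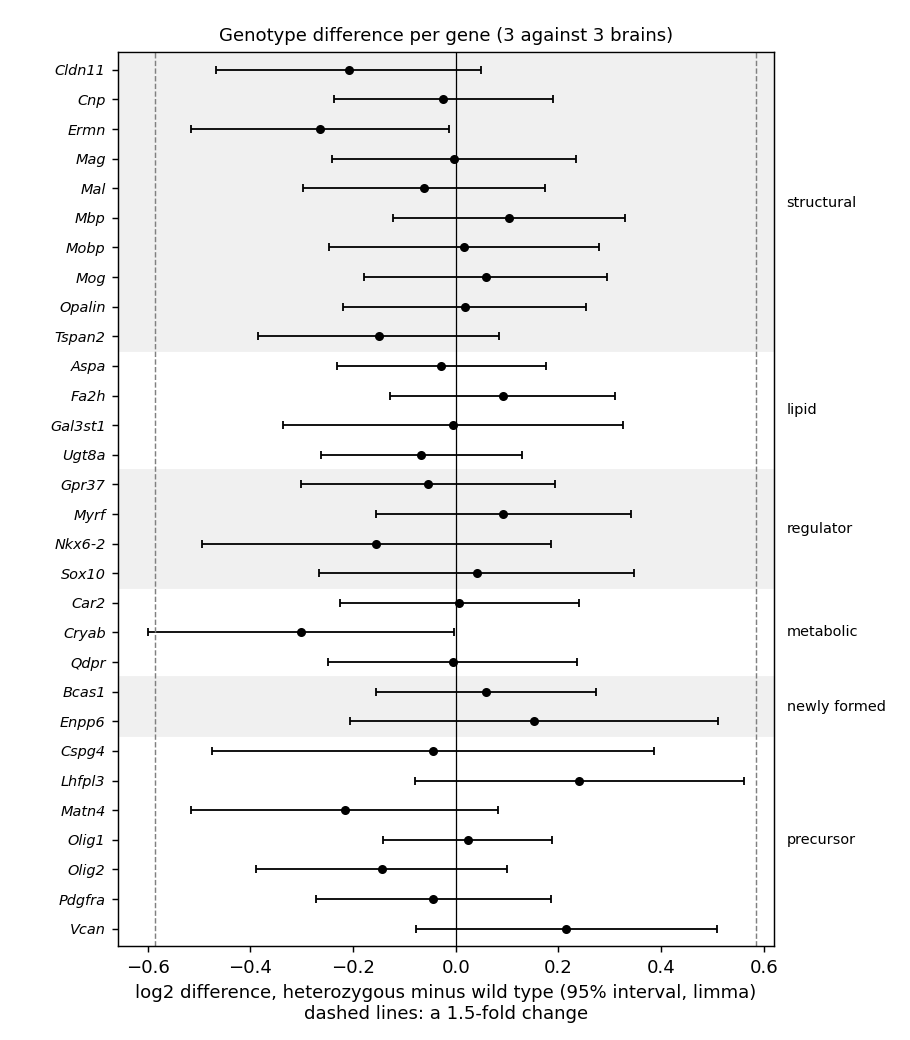
Log2 difference, heterozygous minus wild type, for the 30 genes (points, with 95% limma intervals as bars, 3 against 3 brains), ordered by role, with dashed lines at a 1.5-fold change of intensity + 16. The points run from -0.30 for Cryab to 0.24 for Lhfpl3, and the intervals of Cryab and Ermn alone leave out 0.

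Among the structural proteins of myelin, Mbp encodes myelin basic protein, which binds the inner faces of the membrane together. At 1433532_a_at it measured 10402.7, 8752.3 and 8225.3 in heterozygous brains 1 to 3 and 8747.3, 8782.4 and 7854.3 in wild-type brains 1 to 3. Heterozygous 1 was the highest and the other 5 brains overlapped, with a log2 difference of 0.10 (SE 0.10). After quantile normalization this difference was -0.02. With single arrays left out it ran from 0.01, without heterozygous 1, to 0.17, without heterozygous 3. Mbp has 8 tested probe sets, and all 8 lay above 0, from 0.04 to 0.22. These probe sets are annotated to the same gene and were read in the same 6 brains, so they are not independent. At 2 of the 8 the genotypes did not overlap, beside 10.2% of all probe sets. Of these 2, 1425264_s_at measured 289.2, 250.4 and 274 against 249.5, 216.7 and 234.2 (log2 difference 0.20, SE 0.10), and 1456228_x_at measured 8236.4, 8559.4 and 8231.3 against 8080.1, 8168.8 and 7719.8 (0.06, SE 0.08). The first gap is 250.4 against 249.5, so the nearest brains of the 2 genotypes were almost level. Both have an exact permutation p of 0.1, the smallest that 3 against 3 brains allow.

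The RNA for proteins of the outer and inner myelin surface was close to level between genotypes at the brightest probe sets. Mog, on the outermost lamella, measured 459.6, 465.6 and 406.2 in heterozygous and 462.4, 369.5 and 448.1 in wild-type brains (0.06, SE 0.11). Mag, an adhesion molecule facing the axon, measured 1063.8, 1022.1 and 968.2 against 1118.0, 857.2 and 1105.7 (-0.0032, SE 0.11). In both genes wild type 2 was the lowest of the 6 brains and the genotypes overlapped. Cnp, a phosphodiesterase of the cytoplasmic channels of myelin, measured 5121.0, 4049.3 and 4465.3 against 4762.1, 4401.6 and 4643.8 (-0.02, SE 0.10), and its 2 other probe sets lay at -0.04 and 0.20. Opalin, a sialylated membrane protein of oligodendrocytes, lay at 0.02 (SE 0.11).

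Mobp, a small basic protein of compact myelin, varied more between wild-type brains than between genotypes. It measured 3428.5, 3699.1 and 3849.8 in heterozygous brains and 4324.7, 3020.3 and 3616.2 in wild-type brains (0.02, SE 0.12). Wild type 1 was the highest and wild type 2 the lowest of all 6. At the other 3 tested probe sets, which lay at -0.09, -0.11 and -0.23, wild type 1 and wild type 3 were above wild type 2 as well. Mal, a lipid raft protein that sorts cargo to myelin, lay at -0.06 (SE 0.11) and -0.0031 (SE 0.11) by its 2 probe sets.

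The structural genes with the lowest differences, heterozygous minus wild type, were Ermn, Cldn11 and Tspan2. Ermn encodes ermin, a protein of late oligodendrocytes that binds actin. It measured 465.3, 493.1 and 623.7 in heterozygous brains and 640.6, 587.7 and 668.9 in wild-type brains, or -0.26 on the log2 scale (SE 0.11). Its limma adjusted p was 0.956. Heterozygous 3 lay above wild type 2, so the genotypes overlapped, and the second probe set of Ermn lay at -0.10 (SE 0.09). Cldn11, the claudin of the myelin tight junction, measured 835.8, 967.3 and 746.1 against 1133.8, 905.5 and 913.1 (-0.21, SE 0.12). Heterozygous 2 was higher than 2 of the wild-type brains. Tspan2, a tetraspanin of the oligodendrocyte membrane, measured 969.5, 967.8 and 998.4 against 1134.4, 918.1 and 1234.4 (-0.15, SE 0.11). Its heterozygous brains lay close together, between wild type 2 and the other wild-type brains, and its 2 other probe sets lay at -0.0075 and -0.11.

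**Figure D2:**
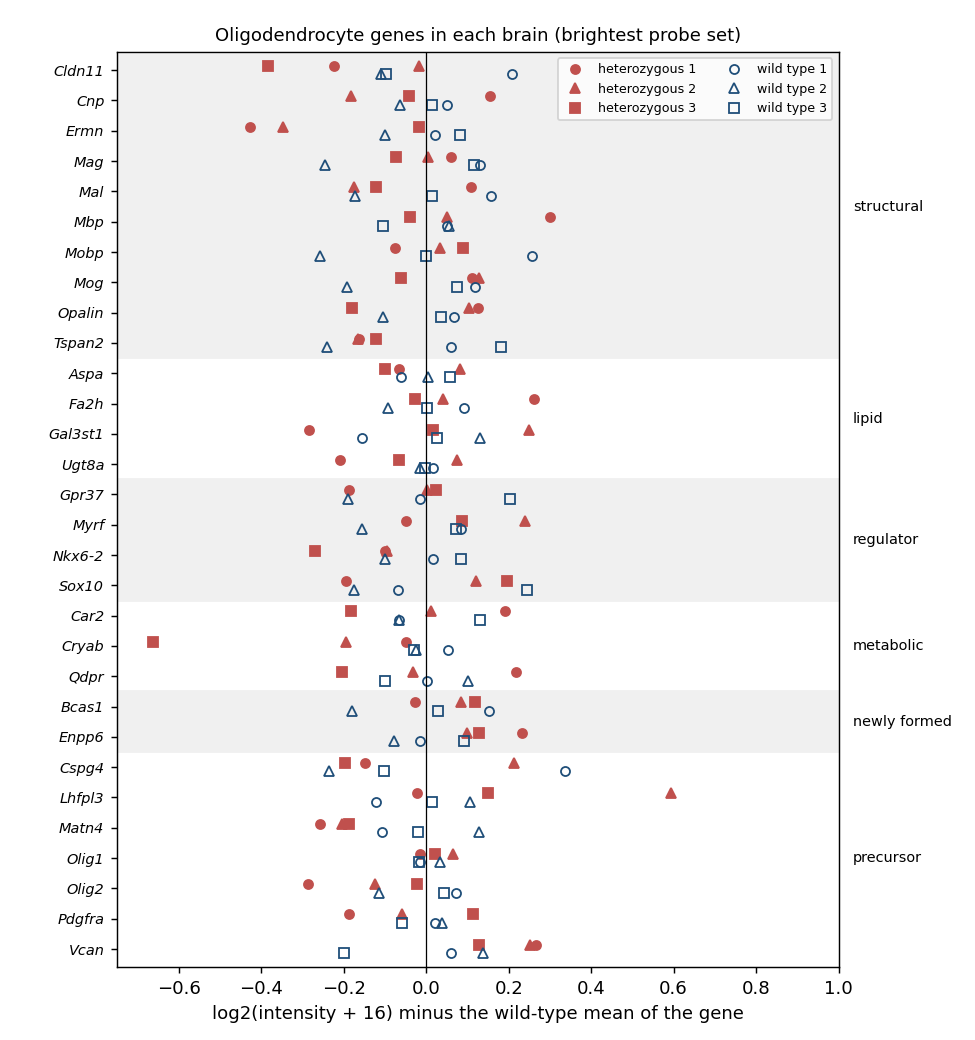
Each of the 30 genes in each of the 6 brains, as log2(intensity + 16) minus the mean of the gene's 3 wild-type brains (filled red, heterozygous; open blue, wild type; the marker's shape gives the replicate number). The genotypes do not overlap for Cryab, Enpp6 and Matn4, and the open triangle of wild type 2 lies at the lower end for Mag, Mobp, Mog and Tspan2.

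The genes of myelin lipid synthesis gave no called difference. Ugt8a, the transferase that makes galactosylceramide, measured 1110.3, 1355.0 and 1227.0 in heterozygous and 1300.9, 1272.4 and 1283.6 in wild-type brains (-0.07, SE 0.09). The wild-type brains were nearly level with each other, inside the range of the heterozygous ones. Fa2h, which hydroxylates the fatty acid of galactolipids, measured 705.6, 603.8 and 574.8 against 625.4, 548.3 and 587.4 (0.09, SE 0.10), with heterozygous 1 highest. Gal3st1, which turns galactosylceramide into sulfatide, lay at -0.0059 (SE 0.15) with heterozygous brains from 113 to 170.7 and wild-type brains from 124.9 to 155.9. Aspa, whose enzyme splits N-acetylaspartate and so frees acetate for lipid synthesis, lay at -0.03 (SE 0.09).

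The regulators of the lineage overlapped between genotypes as well. Sox10, which lies on chromosome 15 as Pphln1 does, measured 215.5, 272 and 287.2 in heterozygous and 236.6, 218.5 and 297.7 in wild-type brains (0.04, SE 0.14). Its 2 other probe sets lay at -0.10 and 0.02. Myrf measured 264.2, 326.2 and 292 against 291.6, 244.2 and 288.7 (0.09, SE 0.11), with wild type 2 lowest. Nkx6-2, a homeobox factor of late differentiation, lay at -0.15 (SE 0.15), from 38.3 to 45.3 in heterozygous and from 45.1 to 53.4 in wild-type brains. Gpr37, a receptor that restrains oligodendrocyte maturation, lay at -0.05 (SE 0.11).

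Cryab, a small heat shock protein that is abundant in oligodendrocytes and also made by other brain cells, had the lowest difference of the set. It measured 1321.2, 1192.5 and 857.4 in heterozygous brains 1 to 3 and 1418.8, 1343.3 and 1338.8 in wild-type brains, a log2 difference of -0.30 (SE 0.13). Each heterozygous brain was below each wild-type brain, with heterozygous 3 far below the other 5 and heterozygous 1 close to the wild types. The limma adjusted p was 0.956, and an exact permutation test gave 0.1, its smallest possible p. At the second tested probe set, 1416455_a_at, the genotypes overlapped, with 773.4, 691.6 and 586.3 against 715.5, 660.2 and 895 (-0.14, SE 0.13). Without heterozygous 3 the difference at the brighter probe set was -0.12, and without heterozygous 1 it was -0.43.

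Car2 and Qdpr, the other metabolic genes, were level between genotypes on average. Car2 encodes carbonic anhydrase 2 and measured 3276.2, 2887.6 and 2522.5 in heterozygous and 2737.9, 2737.8 and 3140.6 in wild-type brains (0.0065, SE 0.11). Qdpr, which regenerates tetrahydrobiopterin, measured 4992.3, 4194.1 and 3722.6 against 4290.2, 4598.5 and 3996.6 (-0.0055, SE 0.11). In all 3 metabolic genes heterozygous 3 was the lowest of the 6 brains, beside 14.8% of all genes, and in Car2 and Qdpr heterozygous 1 was the highest, beside 21.5% of all genes. At these brightest probe sets the heterozygous brains spanned more than the wild-type brains. The second tested probe sets of Cryab and Qdpr kept only part of this. At 1416455_a_at of Cryab heterozygous 3 was again lowest, at 586.3. There the wild types spread more (SD 122.8, n = 3) than the heterozygotes (SD 93.8, n = 3). At 1423664_at of Qdpr heterozygous 1 was again highest, at 2157.4. The heterozygotes again spread more there (SD 254.7, n = 3) than the wild types (SD 121.5, n = 3). But heterozygous 2 was the lowest, at 1686.1, with heterozygous 3 at 1754.0.

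Bcas1 and Enpp6, which mark newly formed oligodendrocytes, lay above 0. Enpp6, a choline phosphodiesterase, was dim and measured 39.4, 34.5 and 35.6 in heterozygous brains and 30.7, 28.7 and 34.3 in wild-type brains (0.15, SE 0.16). The genotypes did not overlap, with 34.5 and 34.3 as the nearest values, and the exact permutation p was 0.1. At its second probe set the difference was 0.09 (SE 0.18). Bcas1 measured 2150.4, 2326.1 and 2379.4 against 2435.3, 1933.2 and 2234.7 (0.06, SE 0.10), and wild type 1 was the highest of its 6 values.

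Of the precursor genes, the receptors and proteoglycans gave differences of either sign. Pdgfra, the receptor for platelet-derived growth factor, measured 269.8, 296.2 and 335.7 in heterozygous and 314.1, 317.7 and 296.3 in wild-type brains (-0.04, SE 0.10). Cspg4, the NG2 proteoglycan, was dim, at 41.6, 58.0 and 39.8 against 64.7, 38.3 and 43.5 (-0.04, SE 0.20). Both overlapped: for Pdgfra the lowest and the highest brain were heterozygous, and for Cspg4 both were wild type. Vcan, the matrix proteoglycan versican, measured 124.9, 123.5 and 112 against 106.2, 113 and 86.01 (0.22, SE 0.13), and heterozygous 3 lay just under wild type 2. Its second tested probe set lay at 0.37 (SE 0.22), and 6 further Vcan probe sets were too dim to test.

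Olig1 and Olig2 encode helix-loop-helix factors of the lineage. Olig1 was the steadiest of the 30 genes, at 1972.8, 2084.8 and 2022.8 in heterozygous and 1972.6, 2038.8 and 1968.5 in wild-type brains (0.02, SE 0.07). The limma interval of Olig1 ran from -0.14 to 0.19. Olig2 measured 190.1, 214.6 and 231.5 against 248.3, 216 and 242.8 (-0.14, SE 0.11). Heterozygous 3 lay above wild type 2 and the other heterozygous brains below all wild types.

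Matn4 and Lhfpl3 lay at opposite ends of the precursor genes. Matn4, a matrilin of the extracellular matrix, measured 66.4, 69.6 and 70.5 in heterozygous brains and 75.5, 91.6 and 81.1 in wild-type brains (-0.22, SE 0.14). The genotypes did not overlap, and the exact permutation p was 0.1 with a limma adjusted p of 0.956. Lhfpl3, a tetraspan membrane protein, measured 320.9, 500.8 and 363.7 against 298.7, 352.7 and 329.7 at 1433990_at (0.24, SE 0.15), where heterozygous 2 stood above the other 5 brains. Without heterozygous 2 this difference was 0.06. Its dimmer probe set 1429592_at went the other way without overlap, with 73.8, 55.3 and 70.2 against 75.5, 74.2 and 82.9 (-0.19, SE 0.15). The 2 probe sets of Lhfpl3 thus differed by 0.43 on the log2 scale, the widest gap within any of the 15 genes with several tested probe sets.

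Of those 15 genes, 9 had all their probe sets on 1 side of 0 and 6 had them on both sides. The genes on 1 side were Mbp, Vcan and Enpp6 above 0 and Tspan2, Cryab, Ermn, Mal, Qdpr and Cspg4 below. Among the 56 tested probe sets, 26 lay above 0 and 30 below, and 6, or 10.7%, had genotypes that did not overlap, beside 10.2% of all probe sets.

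**Figure D3:**
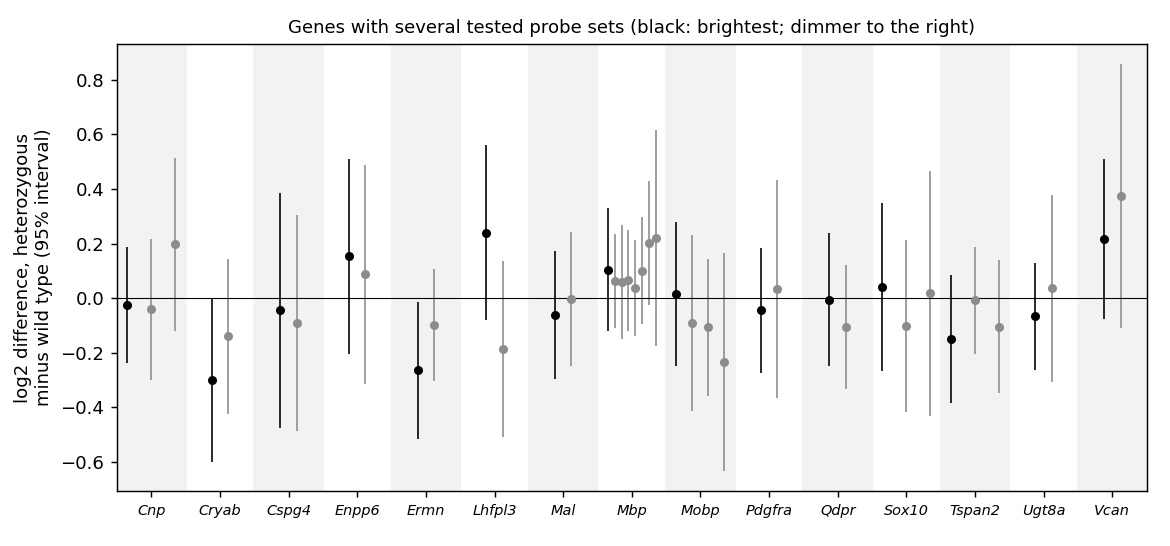
Log2 difference, heterozygous minus wild type, with 95% limma intervals, at every tested probe set of the 15 genes that have several (black, brightest probe set; grey, the others, dimmer to the right). All 8 Mbp probe sets lie between 0.04 and 0.22, and the 2 Lhfpl3 probe sets lie at 0.24 and -0.19.

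As a level per brain, each gene was centred on its mean over the 6 brains and the genes were averaged on the log2 scale. The myelin level was 0.0023, 0.02 and -0.07 in heterozygous brains 1 to 3 and 0.07, -0.08 and 0.06 in wild-type brains 1 to 3. The genotype means differed by -0.03, and the SD was 0.05 (n = 3) among heterozygous brains and 0.09 (n = 3) among wild types. The highest and the lowest of the 6 brains were both wild type. The precursor level was -0.10, 0.10 and -0.0013 against 0.03, 0.01 and -0.05, with a difference of 0.0045 and SDs of 0.10 (n = 3) and 0.04 (n = 3), and here both extremes were heterozygous. Myelin level minus precursor level was 0.10, -0.08 and -0.07 in heterozygous brains and 0.03, -0.10 and 0.12 in wild-type brains, a difference of -0.03 that is smaller than the SD of 0.10 (n = 3) or 0.11 (n = 3) within a genotype.

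**Figure D4:**
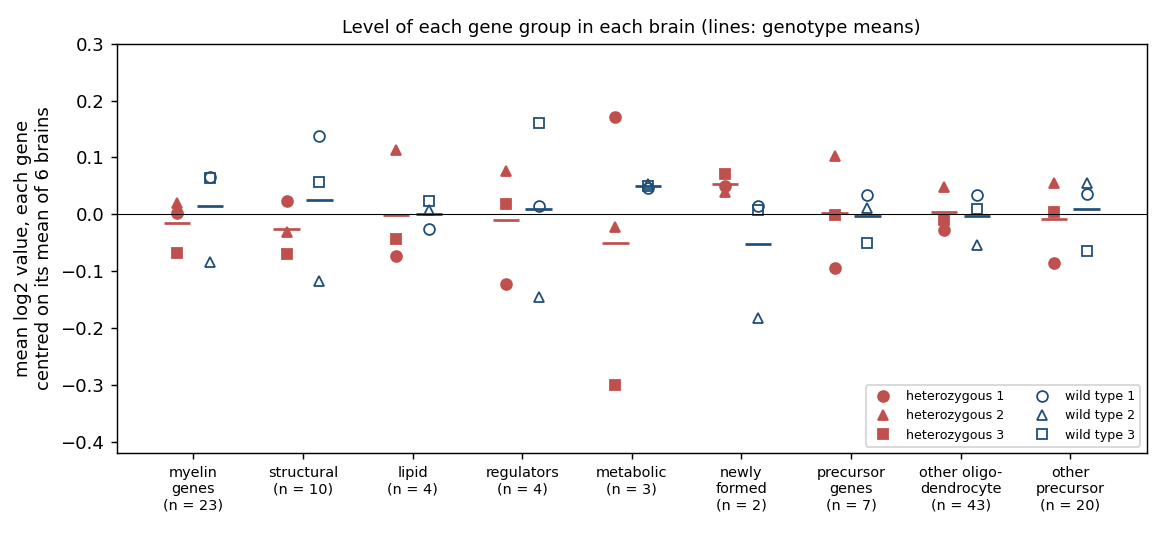
Level of each gene group in each brain, as the mean of log2 values with every gene centred on its mean of the 6 brains (filled red, heterozygous; open blue, wild type; short lines, genotype means; n, genes). The structural level of the wild-type brains runs from -0.12 in wild type 2 to 0.14 in wild type 1, with the heterozygous brains between them, and the metabolic level of the heterozygous brains runs from -0.30 to 0.17.

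Wild type 2 was the lowest of the 6 brains for 10 of the 30 genes, beside 18.8% of all genes. They included 4 of the 10 structural genes (Mag, Mobp, Mog and Tspan2), both genes of newly formed cells and 2 of the 4 regulators, and 1 of the 7 precursor genes. This holds at the brightest probe sets. At 1424568_at of Tspan2 heterozygous 3 was lowest. Heterozygous 2 was lowest at 1432417_a_at of Tspan2, 1450088_a_at of Mobp, 1436090_at of Enpp6 and 1450944_at of Cspg4. At 1421010_at and 1436263_at of Mobp wild type 2 was lowest again. For Gpr37, wild type 2 and heterozygous 1 were nearly level, at 477.2 and 477.8. Wild type 2 was chosen for this description after its values were seen. Without it, the difference of the myelin level went from -0.03 to -0.08, and 6 myelin genes lay above 0 and 17 below. Leaving out wild type 3, wild type 1 or heterozygous 3 moved these values the opposite way. The difference was -0.006 without wild type 3, with 14 genes above 0 and 9 below, and -0.005 without wild type 1, with 12 above and 11 below. Without heterozygous 3 it was -0.004, with 11 above and 12 below. The difference of the myelin level was -0.039 without heterozygous 1 and -0.047 without heterozygous 2, each with 11 above and 12 below. Of genes that mark the hindbrain and spinal cord, the brightest, Glra1 and Slc6a5, both of glycinergic transmission, were also lowest in wild type 2. Glra1 measured 140.3, 138.5 and 160.3 in heterozygous and 193.5, 117.3 and 132 in wild-type brains. Slc6a5 measured 133.9, 159.8 and 126.1 against 161.2, 108.2 and 148.1. Over the 9 tested genes of that list the centred level was -0.06 in wild type 2, -0.11 in wild type 3 and -0.18 in heterozygous 1, so the list as a whole was not lowest in wild type 2. The part of tissue composition in these values was not tested.

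The promoters of the 4 structural genes with wild type 2 as their lowest brain at the brightest probe set are shown. The genes were picked by that trait, so sharing it is no result about them. The sequences are from RefSeq on GRCm38.p6. Of the 31 genes, 22 had an entry, with 28 windows that reach from 250 bases before to 50 bases after a gene start. The first window listed for each gene is printed 5′ to 3′ on the strand of the gene: chr7:30914814-30915113 on the minus strand for Mag, chr9:120149492-120149791 on the plus strand for Mobp, chr17:37023349-37023648 on the minus strand for Mog and chr3:102734520-102734819 on the plus strand for Tspan2. Capitals mark matches on either strand to ACAAAG, which Sox proteins bind, to the E-box words CAGCTG and CATCTG, and to CTGGNAC, which covers the word that Myrf binds. CAGCTG reads the same on both strands.
Mag: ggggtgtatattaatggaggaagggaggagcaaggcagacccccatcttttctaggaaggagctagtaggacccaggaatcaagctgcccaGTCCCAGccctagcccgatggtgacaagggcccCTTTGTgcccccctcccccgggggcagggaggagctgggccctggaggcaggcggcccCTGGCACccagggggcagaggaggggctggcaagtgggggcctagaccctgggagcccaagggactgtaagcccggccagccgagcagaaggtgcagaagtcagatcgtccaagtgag
Mobp: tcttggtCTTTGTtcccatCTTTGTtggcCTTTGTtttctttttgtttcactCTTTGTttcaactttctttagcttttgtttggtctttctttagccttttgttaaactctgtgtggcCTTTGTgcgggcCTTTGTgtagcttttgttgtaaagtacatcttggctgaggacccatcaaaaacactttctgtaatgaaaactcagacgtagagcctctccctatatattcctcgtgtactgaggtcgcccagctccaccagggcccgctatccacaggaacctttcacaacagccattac
Mog: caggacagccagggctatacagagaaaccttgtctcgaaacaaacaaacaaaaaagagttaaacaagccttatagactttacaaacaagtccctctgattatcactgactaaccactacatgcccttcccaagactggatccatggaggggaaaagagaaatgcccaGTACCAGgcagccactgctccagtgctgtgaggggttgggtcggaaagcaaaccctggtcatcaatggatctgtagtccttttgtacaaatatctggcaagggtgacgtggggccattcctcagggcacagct
Tspan2: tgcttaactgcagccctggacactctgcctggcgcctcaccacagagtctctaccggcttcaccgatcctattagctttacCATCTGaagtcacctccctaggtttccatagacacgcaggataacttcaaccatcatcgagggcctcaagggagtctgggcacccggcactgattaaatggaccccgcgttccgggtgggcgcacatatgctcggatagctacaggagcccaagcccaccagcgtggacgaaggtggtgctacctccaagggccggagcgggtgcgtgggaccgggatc

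The Mag window holds 1 match to ACAAAG and 2 to CTGGNAC, the Mog window 1 match to CTGGNAC and the Tspan2 window 1 to CATCTG. The Mobp window holds 6 matches to ACAAAG, all read as CTTTGT on the printed strand, and among all 32851 promoter windows it was the only 1 with at least 6. That count was looked at after the window had been seen. At least 1 match to ACAAAG was present in 21.4% of the 28 windows of the set and in 18.7% of all windows. For CTGGNAC the shares were 21.4% and 19.3%, for CATCTG 21.4% and 17.2%, and for CAGCTG 14.3% and 16.3%. Some windows of a gene overlap, as for Mag, and a match is a run of letters, not a measured binding site.

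Further genes of the lineage gave no call either. Of 43 tested genes enriched in myelinating oligodendrocytes, 24 lay above 0 and 19 below (median 0.03). At an unadjusted limma p below 0.05 there were 1 higher, beside 2.13% of all genes, and 2 lower, beside 2.26%. Prr18 was the lowest by moderated t, at 299.1, 234.6 and 369.8 in heterozygous and 451.1, 422.1 and 422.4 in wild-type brains (-0.52, SE 0.14, limma adjusted p = 0.956), with every heterozygous brain below every wild type. Il33, a cytokine stored in the nucleus, measured 442, 433.5 and 372.6 against 567, 462.2 and 531.5 (-0.31, SE 0.11), also without overlap. At the other end stood Dusp15, a phosphatase, at 87.7, 93.5 and 84.2 against 73.2, 67.4 and 55.7 (0.36, SE 0.14), and the connexin gene Gjc3 (0.42, SE 0.22), which is dim in wild type 3, at 19.2. The genotypes did not overlap for 7 of the 43 genes, beside 10.1% of all genes.

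Among 18 tested genes of sphingolipid and very long chain fatty acid metabolism, 9 lay on each side of 0 (median -0.01). Sgms1, a sphingomyelin synthase, measured 361.5, 337.3 and 316.3 in heterozygous and 412.1, 446.1 and 383.5 in wild-type brains (-0.28, SE 0.10), and Gltp, a glycolipid transfer protein, lay at -0.15 (SE 0.09). Sptlc1, a subunit of the enzyme that starts sphingolipid synthesis, measured 358.2, 384.2 and 436.1 against 326.2, 317.1 and 333.7 (0.25, SE 0.10), and Tecr, a reductase of fatty acid elongation, lay at 0.20 (SE 0.10). In these 4 genes the genotypes did not overlap, and each had a limma adjusted p of 0.956. With Elovl1, a fatty acid elongase at 0.09 (SE 0.09), the genotypes did not overlap for 5 of the 18 genes, or 27.8%, beside 10.1% of all genes, and 3 of the 5 were higher and 2 lower in heterozygous brains. Elovl1 was named after its values were seen. The summed intensity of the 18 genes did not overlap either, at 16712.6 to 18826.8 in heterozygous and 16314.2 to 16629.0 in wild-type brains. Tecr, at 5781.2, 4815.2 and 4645.5 against 4314.4, 4539.8 and 4377.9, was the brightest of them. The centred level of the list overlapped, from -0.04 to 0.04 in heterozygous and from -0.03 to 0.03 in wild-type brains. Of 20 further precursor genes, 7 lay above 0 and 13 below (median -0.02), and none had an unadjusted limma p below 0.05. By moderated t the lowest were Tcf7l2, a Wnt pathway factor of maturing cells, at -0.20 (SE 0.13) and the receptor gene Megf11 at -0.20 (SE 0.14). The highest by moderated t were the receptor gene Gpr17 at 0.12 (SE 0.19) and Sox11 at 0.42 (SE 0.34). For Sox11, wild type 3 stood at 60.2 and the other 5 brains between 164.6 and 235.8.

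Markers of other cells were measured alongside. The summed intensity of 14 astrocyte genes, led by Aldoc and Slc1a2, was 25775.1 to 28937.1 in heterozygous and 26841.3 to 28744.1 in wild-type brains. For 15 neuron genes, led by Snap25 and Syt1, it was 43147.3 to 48530.9 against 43119.3 to 44664.7, and for 11 microglia genes, led by Csf1r and Ctss, 3397.4 to 3809.4 against 3605.9 to 4083.4. The sums of 12 endothelial and pericyte genes, led by Rgs5 and Vtn, were 3127.2 to 3727.9 against 3209.7 to 3723.3. Of 10 genes of the peripheral, Schwann cell type of myelin, 4 were tested, and their sums were 470.5 to 606.5 against 528.9 to 619.6, led by Pou3f1 and Drp2, which are not confined to Schwann cells. Cerebellar sums, led by Calb1 and Zic1, were 15891.5 to 17514.4 against 15332.6 to 16795.3. For 9 hindbrain and spinal cord genes they were 556.3 to 710.9 against 567.3 to 718. The genotypes overlapped in each of these sums. The forebrain sum did not overlap, at 4629.3 to 5342.9 in heterozygous and 4231.2 to 4411.5 in wild-type brains, with Camk2a, its brightest gene, at 0.47 (SE 0.12, limma adjusted p = 0.956) and Ppp1r1b at -0.01 (SE 0.10). Camk2a had means of 2506.0 (heterozygous) and 1785.9 (wild type). Over the 11 tested forebrain genes, 6 lay above 0 and 5 below, and the centred level overlapped, from -0.03 to 0.06 in heterozygous and from -0.10 to 0.05 in wild-type brains. What part these cells and regions have in the values of the oligodendrocyte genes was not tested.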

How the data were processed

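Whole-brain RNA from 3 heterozygous and 3 wild-type mice was measured on 6 arrays. Per the labels' protocols, RNA was primed with oligo(dT) and labelled with biotin as cRNA, which favours 3′ ends. The deposited values are linear intensities of probe sets. The sources used here do not say how the authors summarised the probes. On each array the central 96% of values averaged 149.4. The 64 control probe sets were set aside. Symbols came from the platform annotation and were updated through Entrez identifiers. No genome build was needed for the intensities.

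The dimmest 40% of probe sets, up to a mean signal of 18.4, were not tested (18015). The others (27022) were compared on log2(intensity + 16) with limma 3.58.1 in R 4.3.3 (lmFit, eBayes with trend, two-sided, Benjamini-Hochberg over all probe sets). Permutation tests were exact and two-sided. Only the limma step was tested on simulated data. A gene was represented by the probe set brightest over all 6 arrays. All genes of the set are named, with the 2 highest and 2 lowest by moderated t of each further list and the 2 brightest of each marker list. The set and the lists were chosen with earlier results of these data known. The number of arrays limits the precision. Replicate numbers II and III are shared by both genotypes. The labels give the first heterozygous array no number, and it was called 1 by order of deposit. Deviations from the genotype means correlated at 0.20 for II and -0.02 for III, and at 0.08 for the arrays called 1, so the numbers were not used as pairs. Alternatives covered pseudocount, scaling, filter, moderation, weights, a block and single arrays left out.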

Additional observations from a re-analysis of the deposited data

How the results depend on the processing

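No probe set of the 30 genes was called under any of the alternatives, and the lowest adjusted p of a gene (limma, brightest probe set) in any of them was 0.649. Over 507 combinations of gene and alternative, 1 moved the log2 difference by more than the residual SD of the gene (Olig1 under median centring, to -0.01). The sign changed under at least 1 alternative for 18 genes. It held for 12, of which 5 were higher (Enpp6, Fa2h, Lhfpl3, Myrf and Vcan) and 7 lower (Cldn11, Cryab, Ermn, Matn4, Nkx6-2, Olig2 and Tspan2). Median centring left 7 myelin genes above 0 and 16 below, and with single arrays left out between 6 and 14 lay above and between 9 and 17 below, most of them above without wild type 3 or wild type 1. The count of genes with an unadjusted p below 0.05 was 2, but 0 without the intensity trend and with the mean of all probe sets, 1 after quantile normalization, without the dim filter and with the stricter one, 3 with the replicate block, and 0 to 2 with single arrays left out. The median difference of the myelin genes lay between -0.047 and 0.016 with single arrays left out, and that of the precursor genes between -0.073 and 0.027. The count of called probe sets on the whole array was 4, but 1 without the dim filter, 1 without the intensity trend and 1 to 14 with single arrays left out. With the replicate block it was 5, and 0 for the 30 genes, where the arrays called 1 form a block by order of deposit. Of the 3 heterozygous arrays, 1 correlated best with the wild-type array of its own number (heterozygous 2, at 0.20). With 3 arrays per genotype this cannot show whether or not the numbers mark pairs. With single arrays left out, the median of the further oligodendrocyte genes lay between -0.024 and 0.059, that of the further lipid genes between -0.039 and 0.046, and that of the further precursor genes between -0.086 and 0.006. Dim genes (Cspg4, Enpp6, Nkx6-2) lie near the filter limit, where small differences cannot be resolved.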
